A study of Homo sapiens with 6 samples.

Results

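The comparison set THP-1 cells given recombinant human interleukin-6 (IL-6) for 24 h against control cells collected at the same time. THP-1, a human line grown from a monocytic leukaemia, stands in for monocytes in the laboratory, so all results come from 1 line. The series held 6 RNA-seq libraries, 1 for each combination of IL-6 or control with 6, 24 or 48 h, and its stated question was which genes IL-6 changes in these cells. The dose of IL-6 and the treatment of the control cells are not stated in the labels. The genes compared were the 13028 protein-coding genes with a value in all 6 libraries, of 19978 protein-coding genes annotated and of 17388 genes of any type with 6 values. With 1 library a side the difference has no replicate check, and no p-value is given.

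IL-6 binds its receptor chain IL6R, and the complex engages the shared signalling chain gp130, encoded by IL6ST. The attached JAK kinases then phosphorylate the transcription factor STAT3, which enters the nucleus and switches on target genes. Among these is SOCS3, whose protein binds gp130 and the JAKs and shuts the signal down. Monocytes carry IL6R on their surface and so answer IL-6 directly.

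A difference here is the log2 value of the IL-6 library of 24 h minus that of the control library of 24 h, so 1 is 2-fold higher with IL-6 and -1 is 2-fold lower. Levels have an arbitrary unit, worked out from the deposited values, and the depth in reads is unknown. For 1844 genes no level could be matched within the search limit of 100. They were treated as lying above it in their highest library, and for them the deposited log2 values, centred on each gene, are given. The other 4 libraries served to judge each gene: its spread is the larger of the 2 differences between 48 h and 6 h, the one among control libraries and the one among IL-6 libraries. A difference larger than that is called beyond the spread. For genes whose response to IL-6 grew over the hours, the spread holds that growth too.

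Of the members, 7177 had a mean level of 10 or more in the 24 h libraries and were compared. Of these, 38 (0.529%) were at least 2-fold higher in the IL-6 library and 32 (0.446%) at least 2-fold lower. Beyond the spread were 23 of the higher genes (0.32% of all) and 26 of the lower ones (0.362%). With the library medians set equal, the split of 38 higher and 32 lower became 52 higher and 22 lower. At any fold, 693 genes (9.66%) were higher and 1419 (19.8%) lower beyond the spread, and the median difference over the 7177 genes was -0.06. For scale, 391 of these genes differed by 2-fold or more between the IL-6 libraries of 48 h and 6 h, and 108 between the control libraries of those times.

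**Figure D1:**
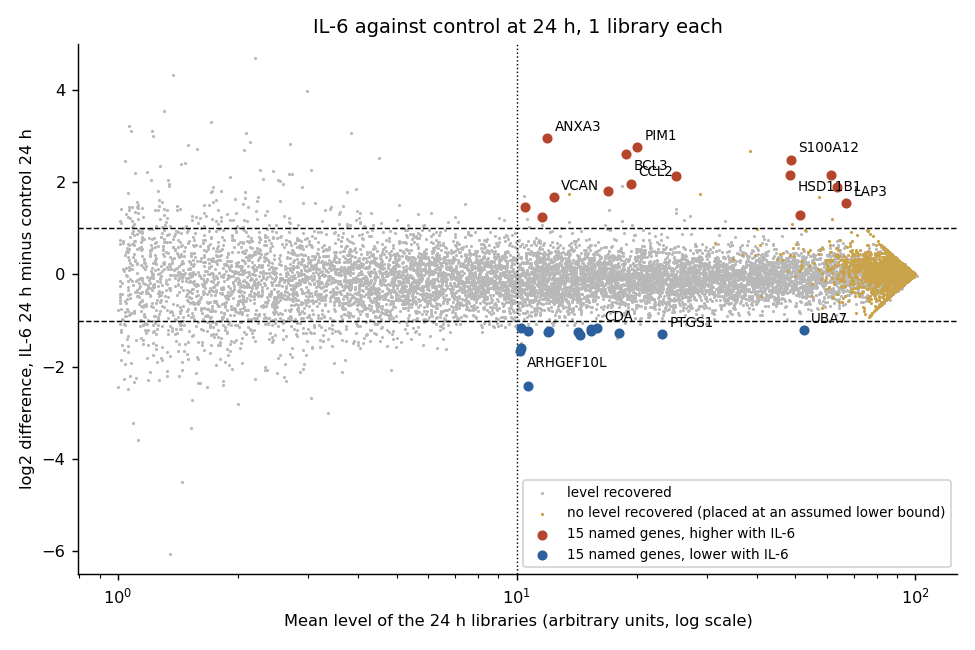
Each point is a protein-coding gene at a mean level of at least 1, placed by its mean level over the 24 h libraries (arbitrary units, log scale) and its log2 difference, IL-6 24 h minus control 24 h. Red and blue points are the 15 highest and the 15 lowest genes past 2-fold and beyond the spread at a level of at least 10, dashed lines mark 2-fold, the dotted line marks the level of 10, and ochre points are genes without a recovered level, placed at an assumed lower bound. The scatter is wider at low levels, and the named higher genes reach further from 0 than the named lower ones.

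The 2 other time-matched pairs share no library with the 24 h pair. Of the 23 higher genes, 21 were also higher with IL-6 at both 6 h and 48 h, against 23.9% of the 7177 genes. Of the 26 lower genes, 19 were lower at both other times, against 27.1% of the 7177. The spread by which these genes were chosen comes from the same 4 libraries as those pairs. A small spread favours pairs of the same sign at 6 h and 48 h, so the shares of all 7177 genes are no like comparison. The 3 IL-6 libraries lay above all 3 control libraries for 20 of the 23 higher genes (3.09% of the 7177), and below them for 11 of the 26 lower genes (6.03%), counts that the choice of genes on the 24 h pair favours. In 22 of the 26 lower genes the IL-6 library of 24 h was the lowest of all 6, and in 22 the control library of 24 h was the highest. In 11 of the 23 higher genes the IL-6 library of 24 h was the highest, and in 7 the control library of 24 h was the lowest. These extremes follow in large part from choosing the genes on the 24 h pair and its spread, and nothing is read from them.

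Classical targets of STAT3 were among the genes furthest above control. PIM1 (chr6:37170152-37175428, plus strand, GRCh38), which encodes a serine/threonine kinase that promotes survival, had levels of 29.1, 34.9 and 61.0 in the IL-6 libraries of 6, 24 and 48 h, against 6.54, 5.16 and 7.14 in the control libraries. The 24 h difference of PIM1 was 2.76, or 6.77-fold, with a spread of 1.07. BCL3 (chr19:44747705-44760044, plus strand), a nuclear member of the IκB family that works with NF-κB p50 and p52, had levels of 18.7, 32.4 and 52.0 with IL-6, against 3.52, 5.29 and 9.68 in controls. All IL-6 libraries lay above all control libraries for both genes, and BCL3 was 6.13-fold higher at 24 h (2.62, spread 1.48).

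SOCS3, the feedback inhibitor, had levels of 3.19, 2.58 and 8.48 with IL-6 against 0.715, 0.984 and 0.509 in controls. Its 24 h difference was 1.39, the smallest of its 3 pairs (2.16 at 6 h and 4.06 at 48 h), and stayed just within its spread of 1.41. STAT3 itself was 1.45-fold higher (0.54, spread 0.40), with centred log2 values of 0.20, 0.36 and 0.61 with IL-6 against -0.63, -0.18 and -0.36 in controls. Of the 34 measured genes on the list of STAT3 targets and feedback genes, all at a level of at least 1, 3 were at least 2-fold higher (PIM1, BCL3 and SOCS3) and none 2-fold lower, against 212 (1.87%) and 384 (3.38%) of the 11366 genes at that level. The list's median was 0.09, against -0.08 over the 11366 genes. Over the 4 libraries of 6 h and 48 h the list's median had an SD of 0.387, larger than its 24 h value. Of its members, 5 were higher and 2 lower beyond the spread. The same counts over the 11366 genes were 1110 higher (9.77%) and 2250 lower (19.8%).

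Genes of the receptor and its signalling chain differed by small amounts at 24 h. Of 23 members at a level of at least 1, 16 had a negative difference, beside 58.0% of the 11366 genes, and the median was -0.25. Beyond the spread were 4 higher (17.4%, beside 9.77% of the 11366) and 6 lower (26.1%, beside 19.8%). IL6R was lower by 0.54 (spread 0.38), with centred log2 values of -0.16, -0.25 and 0.00 with IL-6 against -0.12, 0.29 and 0.25 in controls. IL6ST had levels of 10.1, 9.71 and 8.81 with IL-6 against 9.36, 11.6 and 8.76 in controls, with a difference of -0.25 and the control library of 24 h the highest of the 6. PIAS3, an inhibitor of STAT3, was the one member at 2-fold or more (-1.01, spread 0.54), at levels of 8.82, 10.7 and 12.8 with IL-6 against 12.9, 21.6 and 13.1 in controls. PTPN2, a phosphatase that removes phosphate from STAT3 and JAK kinases, was higher by 0.72 (spread 0.51), the highest of the list.

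**Figure D2:**
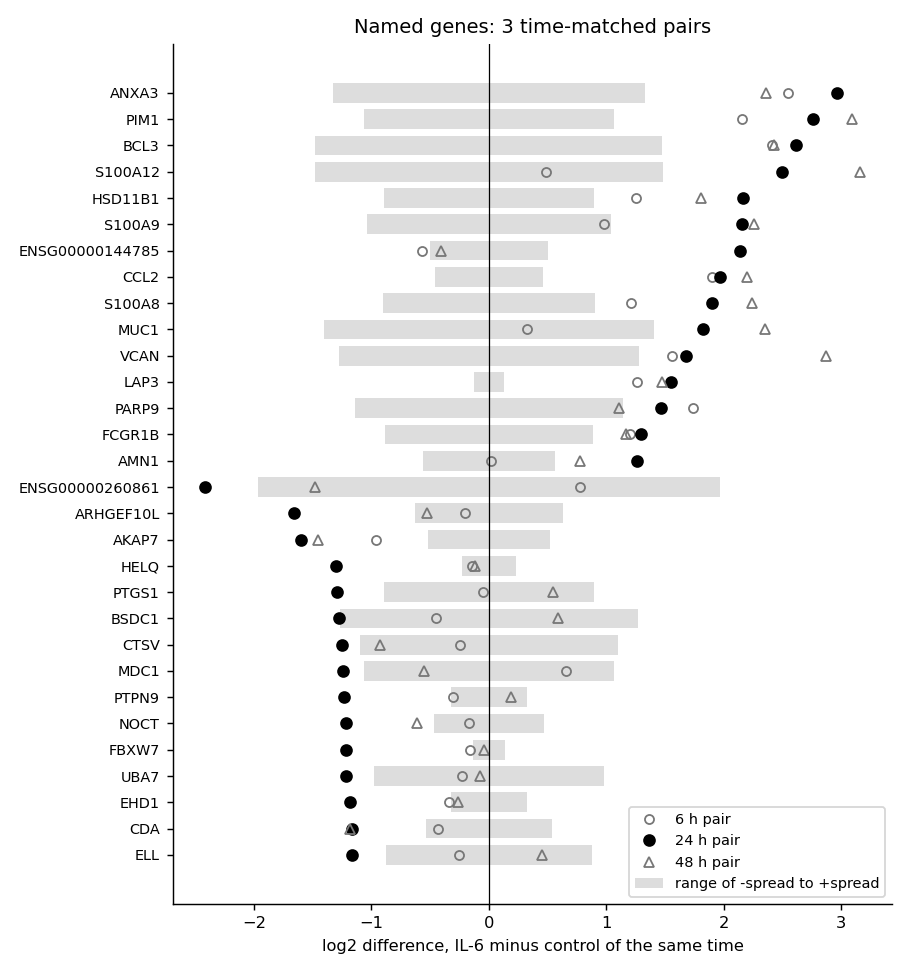
Log2 difference, IL-6 minus control of the same time, for the 30 named genes in the 24 h pair (filled circles), the 6 h pair (open circles) and the 48 h pair (open triangles). Grey bars run from minus to plus the spread of the gene, and by the choice of genes every filled circle lies outside its bar. The pairs of BCL3, CCL2 and LAP3 lie close together, while those of HELQ, FBXW7 and PTGS1 lie near or across 0 at 6 h and 48 h.

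ANXA3 (chr4:78551747-78610451, plus strand), an annexin gene expressed in neutrophils and monocytes, had the largest difference at a level of at least 10, 2.97 or 7.81-fold. Its levels were 12.7, 21.2 and 28.0 with IL-6, against 2.17, 2.71 and 5.46 in controls, without overlap. It was the one member beyond the spread of 9 annexin genes at a level of at least 1, and the list's median was -0.01.

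The calgranulin genes S100A8, S100A9 and S100A12, which encode calcium-binding alarmins of neutrophils and monocytes, were higher together. S100A12 had levels of 30.9, 82.9 and 70.8 with IL-6, against 22.1, 14.7 and 7.94 in controls, a 24 h difference of 2.49 (spread 1.48) beside 0.48 at 6 h. S100A9 stood at centred log2 values of 0.63, 1.18 and 0.87 with IL-6, against -0.35, -0.97 and -1.38 in controls. S100A8 stood at 0.67, 1.21 and 0.80 with IL-6, against -0.54, -0.69 and -1.44 in controls. The 24 h differences of S100A9 and S100A8 were 2.15 and 1.90, and in each of the 3 genes the control library was lower at each later time. The 3 genes lie beside each other on chromosome 1, S100A9 at chr1:153357854-153361023, plus strand, S100A12 at chr1:153373711-153375621, minus strand and S100A8 at chr1:153390032-153391073, minus strand, while the other 8 members at a level of at least 1 held 1 higher and 1 lower beyond the spread and none at 2-fold.

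CCL2 (chr17:34255218-34257203, plus strand), which encodes the chemokine that attracts monocytes, had levels of 40.8, 30.8 and 36.6 with IL-6, against 10.97, 7.88 and 7.97 in controls. Its 24 h difference of 1.97 lay well beyond its spread of 0.46, and its 3 pairs lay between 1.90 and 2.20. CCL24, which encodes an eosinophil-attracting chemokine, went the other way at 24 h, with 0.516 with IL-6 against 2.65 in the control library (-2.36, spread 1.67). CCL4L2 and CCL3, which have near-identical copies, differed by 1.67 and 1.26, and CXCL8 by -1.02, each within its spread. FPR1, the formyl peptide receptor gene, had levels of 5.32, 4.73 and 14.4 with IL-6, against 1.73, 0.668 and 1.72 in controls, a 24 h difference of 2.82 (spread 1.44).

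Sensing and uptake genes were split. LY96, whose product MD-2 binds lipopolysaccharide with TLR4, had levels of 2.70, 5.61 and 6.37 with IL-6, against 1.49, 0.358 and 0.588 in controls (3.97, spread 1.35). TLR7, the endosomal sensor of single-stranded RNA, was higher by 3.10 at 24 h but lower by 0.54 at 6 h, at levels of 2.18 with IL-6 and 0.254 in the control library of 24 h. TLR6 and the amplifying receptor gene TREM1 differed by -2.21 and -1.55, within their spreads. CD14, the co-receptor for lipopolysaccharide, was higher by 1.74, within its spread of 2.93, and its IL-6 libraries were higher at each later time. Of 8 Fc receptor genes at a level of at least 1, 3 had a positive difference, beside 42.0% of the 11366 genes, and the median was -0.28. Over the 4 libraries of 6 h and 48 h the list's median had an SD of 0.435, larger than the size of its 24 h value. Beyond the spread 2 were higher (25%, beside 9.77% of all) and 2 lower (25%, beside 19.8%). FCGR1A, the gene of the high-affinity IgG receptor, and FCGR1B were higher by 0.68 and 1.29, both beyond the spread. They are near-identical copies, so how reads were divided between them is uncertain. FCER1G, the signalling chain of several Fc receptors, was lower by 0.39 (spread 0.12), and FCGRT, the neonatal Fc receptor gene, by 0.55 (spread 0.29).

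HSD11B1, whose enzyme regenerates active glucocorticoid, was 4.47-fold higher (2.16, spread 0.89). MUC1, a membrane mucin gene, had levels of 8.17, 26.4 and 21.6 with IL-6 against 6.51, 7.49 and 4.23 in controls (1.82, spread 1.40). VCAN, which encodes the proteoglycan versican, had levels of 16.3, 18.8 and 16.8 with IL-6 against 5.56, 5.90 and 2.30 in controls (1.67, spread 1.27). All 3 genes stood higher with IL-6 in every pair, MUC1 by only 0.33 at 6 h. AMN1 was higher by 1.26, beyond its spread of 0.56, with a 6 h difference of 0.02. POU2F2, which encodes the transcription factor OCT2, had levels of 5.65, 11.1 and 14.2 with IL-6 against 2.76, 3.82 and 4.34 in controls (1.53, spread 1.32).

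**Figure D3:**
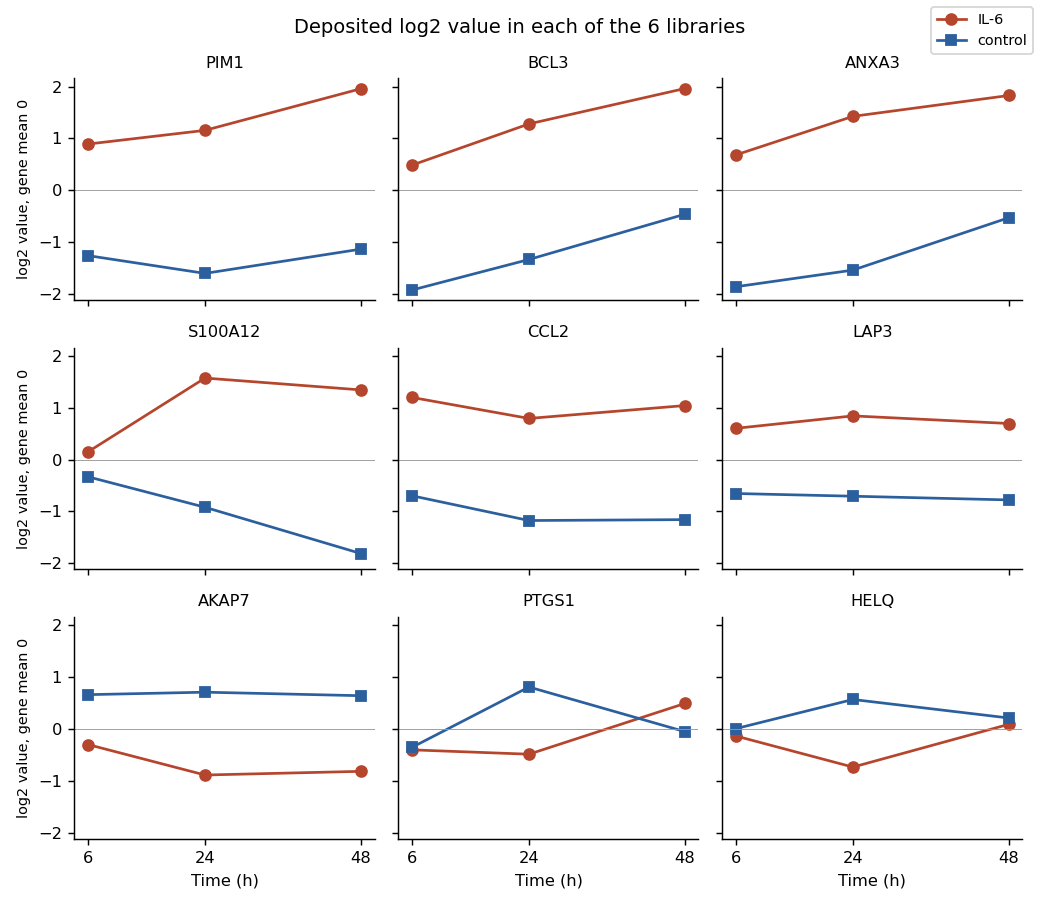
Deposited log2 value of 9 genes in each library, with the mean of each gene at 0, against time in h, for IL-6 (red circles) and control (blue squares). The lines of PIM1, BCL3, ANXA3, CCL2, LAP3 and AKAP7 stay apart at all 3 times, whereas those of PTGS1 cross and those of HELQ meet at 6 h and 48 h.

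Interferon-stimulated genes held a few members far above control. Of 44 members at a level of at least 1, 28 had a positive difference (42.0% of the 11366 genes did) and the median was 0.31. At 2-fold or more were 6 genes, all higher, where 1.87% of the 11366 genes were 2-fold higher and 3.38% 2-fold lower. Beyond the spread 4 were higher, a share of 9.09% that lay near the 9.77% of all genes. Lower beyond it was 1 (2.27%, beside 19.8% of all). The list's median was -0.11 in the 6 h pair, and over the 4 libraries of 6 h and 48 h the list's median had an SD of 0.61, larger than its 24 h value. LAP3, a leucine aminopeptidase gene, was the most even of them, with centred log2 values of 0.60, 0.84 and 0.70 with IL-6, against -0.65, -0.71 and -0.78 in controls (1.55, spread 0.12). PARP9, which encodes a mono-ADP-ribosyltransferase partner, had levels of 11.4, 15.4 and 16.2 with IL-6, against 3.41, 5.57 and 7.53 in controls (1.47, spread 1.14). DTX3L, whose protein pairs with PARP9 and whose gene overlaps it on the other strand, differed by -0.35, within its spread. IFIT3, which encodes an interferon-induced antiviral protein, had levels of 1.73, 3.77 and 4.93 with IL-6, against 1.08, 0.517 and 3.86 in controls, a 24 h difference of 2.87 with the control library of 24 h the lowest of the 6. IFITM1 was higher by 1.68, GBP2 by 1.17 and EPSTI1 by 1.11, each within its spread.

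Genes of the integrated stress and amino acid response had mostly positive differences that stayed within their spreads. Of 30 members, all at a level of at least 1, 27 had a positive difference, beside 42.0% of the 11366 genes, and the median was 0.46. At 2-fold or more were 7 genes, all higher, where 1.87% of the 11366 genes were 2-fold higher and 3.38% 2-fold lower. Of the 7, SLC7A11 was beyond the spread. At any fold, 2 members were higher beyond it (6.67%, beside 9.77% of all) and none lower. Over the 4 libraries of 6 h and 48 h the list's median had an SD of 0.71, larger than its 24 h value. CHAC1, whose ATF4-induced enzyme breaks down glutathione, had levels of 7.18, 29.1 and 66.5 with IL-6, against 3.83, 7.64 and 31.2 in controls. ASNS, the asparagine synthetase gene, had levels of 12.2, 36.5 and 90.0 with IL-6, against 10.8, 13.6 and 60.8 in controls. Both genes grew over the hours with and without IL-6, and their 24 h differences of 1.93 and 1.42 lay inside spreads of 3.21 and 2.88. STC2, ATF5, SESN2 and ATF3 differed by 3.32, 1.34, 1.22 and 1.01, each within its spread. SLC7A11, the cystine transporter gene, was higher by 2.36, with its low value in the control library of 24 h (0.416). Of the 20 cytosolic aminoacyl-tRNA synthetase genes, 15 had a positive difference, beside 42.0% of the 11366 genes, and the median was 0.28. Beyond the spread none was higher, beside 9.77% of all, and 2 were lower (10%, beside 19.8%). This median had an SD of 0.33 over the 4 libraries of 6 h and 48 h, larger than its 24 h value. Of 16 mitochondrial synthetase genes, 13 had a negative difference, beside 58.0% of all genes (median -0.33). Of these 16, 9 (56.2%, beside 19.8% of all genes) were lower beyond the spread. HMOX1, the haem oxygenase gene, had levels of 2.08, 3.73 and 7.95 with IL-6, against 1.18, 0.445 and 0.769 in controls (3.07, spread 1.94).

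**Figure D4:**
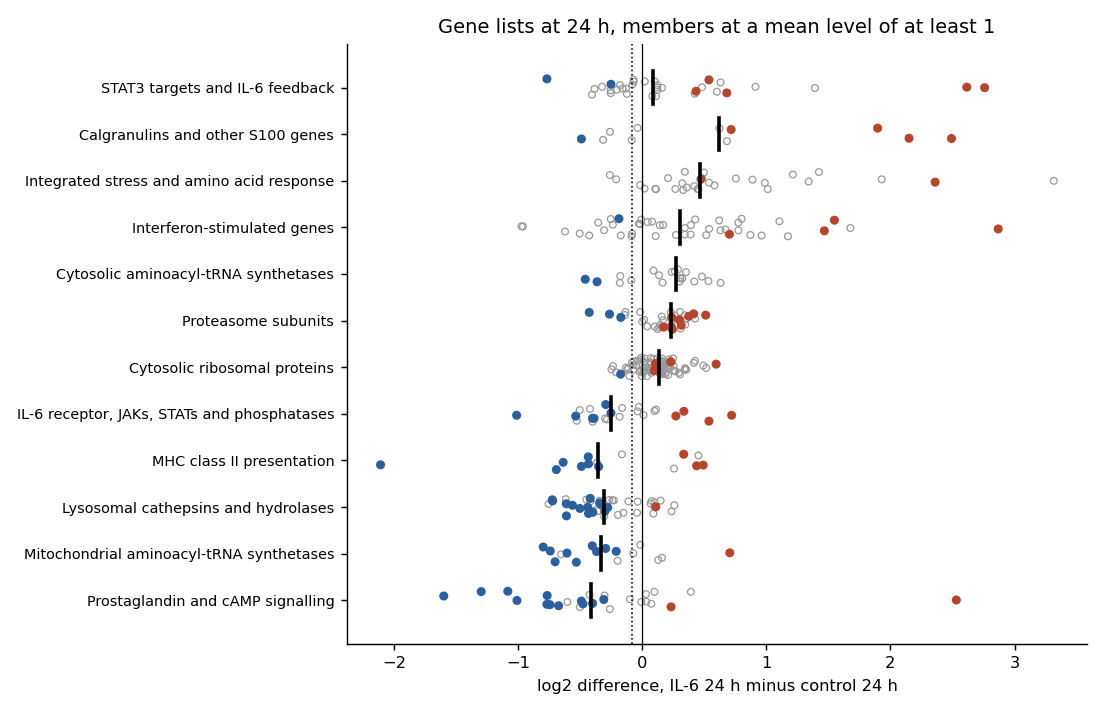
Log2 difference, IL-6 24 h minus control 24 h, of each member at a mean level of at least 1 in 12 gene lists (vertical position within a row is random). Filled points lie beyond the spread, red where higher and blue where lower with IL-6, open points do not, black bars are medians and the dotted line is the median of all 11366 genes. The integrated stress list has its median at 0.46 and the prostaglandin and cAMP list at -0.41.

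Promoter sequences are shown for PIM1, the STAT3 target with the largest difference, and FCGR1A, which holds a STAT-type motif. Others shown are ASNS and CHAC1 from the stress list, and IFIT3 and IFITM1 from the interferon list. The 24 h differences of ASNS, CHAC1 and IFITM1 lay within their spreads. These sequences are examples and no measure of how common a motif is. Each is the 250 bases before the start site from RefSeq, build GRCh38.p14, at chr6:37169902-37170151 (plus strand), chr1:149782444-149782693 (plus strand), chr7:97872409-97872658 (minus strand), chr15:40953221-40953470 (plus strand), chr10:89327747-89327996 (plus strand) and chr11:313790-314039 (plus strand) in that order. Capitals mark matches, on either strand, to TTCNNNGAA (the STAT motif), TGATGNAA (the amino acid response type) or GAAA followed after any 2 bases by GAAA (the interferon response type), and overlapping matches were allowed.
PIM1: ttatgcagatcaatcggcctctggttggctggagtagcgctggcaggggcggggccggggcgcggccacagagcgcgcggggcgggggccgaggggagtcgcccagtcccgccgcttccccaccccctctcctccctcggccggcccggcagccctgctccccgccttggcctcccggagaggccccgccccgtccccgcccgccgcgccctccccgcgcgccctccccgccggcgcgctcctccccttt
FCGR1A: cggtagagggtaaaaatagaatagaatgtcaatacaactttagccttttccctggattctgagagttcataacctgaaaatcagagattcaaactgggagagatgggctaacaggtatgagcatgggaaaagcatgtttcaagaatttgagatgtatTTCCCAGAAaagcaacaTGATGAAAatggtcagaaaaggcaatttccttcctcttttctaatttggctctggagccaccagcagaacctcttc
ASNS: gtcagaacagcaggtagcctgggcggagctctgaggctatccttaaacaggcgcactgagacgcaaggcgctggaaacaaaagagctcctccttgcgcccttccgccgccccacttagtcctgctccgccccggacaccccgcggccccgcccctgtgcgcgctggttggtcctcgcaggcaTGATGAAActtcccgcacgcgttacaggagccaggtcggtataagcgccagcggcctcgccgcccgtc
CHAC1: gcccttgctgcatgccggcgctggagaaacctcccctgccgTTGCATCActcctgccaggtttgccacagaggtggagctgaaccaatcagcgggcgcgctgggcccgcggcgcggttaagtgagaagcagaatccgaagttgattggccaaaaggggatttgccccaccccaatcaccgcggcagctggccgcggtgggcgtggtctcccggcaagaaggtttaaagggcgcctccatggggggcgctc
IFIT3: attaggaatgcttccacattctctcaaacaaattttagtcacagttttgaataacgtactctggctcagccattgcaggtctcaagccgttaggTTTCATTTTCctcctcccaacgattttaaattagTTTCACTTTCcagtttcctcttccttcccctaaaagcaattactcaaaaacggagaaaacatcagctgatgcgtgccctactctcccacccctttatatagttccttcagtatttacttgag
IFITM1: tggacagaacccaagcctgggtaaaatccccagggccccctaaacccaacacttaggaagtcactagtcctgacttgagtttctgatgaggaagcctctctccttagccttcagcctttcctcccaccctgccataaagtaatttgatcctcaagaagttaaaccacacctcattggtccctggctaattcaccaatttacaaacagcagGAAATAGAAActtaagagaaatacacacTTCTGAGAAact

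A promoter was matched for 10367 of the 13028 genes, taking the start site nearest to the deposited start of the gene. PIM1 held none of the 3 motifs. FCGR1A held the STAT motif TTCCCAGAA starting 93 bases before the start site and TGATGAAA 76 bases before it, ASNS held TGATGAAA at 68 bases, CHAC1 held TTGCATCA at 209 bases, IFIT3 held TTTCATTTTC and TTTCACTTTC, and IFITM1 held GAAATAGAAA and TTCTGAGAA. The STAT motif stood in 5.53% of all 10367 promoters and in 22.2% of the 27 matched genes of the STAT3 target list. Its share was higher, 29.0%, in the 31 matched interferon-stimulated genes, and none of the 24 matched stress genes held it. Among genes at a level of at least 10 that had a promoter, 1 of the 17 higher and 1 of the 22 lower held it. The interferon type stood in 2.48% of all promoters and 54.8% of the 31 matched interferon-stimulated genes, and the amino acid type in 1.45% and in 3 of the 24 matched stress genes. The amino acid type also stood in 2 of the 27 matched genes of the STAT3 list and in no interferon-stimulated one. A match is a description of these letters and not a binding site.

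Of 26 genes of the prostaglandin and cAMP pathway at a level of at least 1, 19 had a negative difference, beside 58.0% of the 11366 genes, and the median was -0.41. Beyond the spread 12 were lower (46.2%, beside 19.8% of all) and 2 higher (7.69%, beside 9.77%). AKAP7 (chr6:131135467-131283535, plus strand), which encodes an anchor for the cAMP-dependent kinase, had levels of 7.67, 5.10 and 5.36 with IL-6 against 14.9, 15.4 and 14.7 in controls, without overlap (-1.60, spread 0.52). PTGS1 (chr9:122370530-122395703, plus strand), the constitutive cyclooxygenase gene, had levels of 14.2, 13.4 and 26.4 with IL-6 against 14.7, 32.9 and 18.1 in controls. Its difference of -1.30 was beyond the spread of 0.90, and the groups overlapped. ADCY7, an adenylyl cyclase gene, was lower by 1.08, and PRKACA, a catalytic subunit gene of the cAMP-dependent kinase, by 1.01, both beyond the spread. PTGER3, a prostaglandin E2 receptor gene, went the other way, with levels of 5.24, 7.71 and 7.45 with IL-6 against 0.873, 1.33 and 0.527 in controls (2.53, spread 0.73).

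Of 14 genes of antigen presentation by MHC class II, 9 had a negative difference, beside 58.0% of all genes, and the median was -0.36. Beyond the spread 7 were lower (50%, beside 19.8% of all) and 3 higher (21.4%, beside 9.77%). HLA-DPB1 was the one member at 2-fold or more, with levels of 4.60, 1.08 and 3.64 with IL-6 against 6.62, 4.65 and 4.54 in controls (-2.11, spread 0.54). CD74, the invariant chain gene, was lower by 0.35 with a spread of 0.18. HLA genes have near-identical copies, so their read shares are uncertain. HLA-DPA1, RFXAP and RFXANK were higher beyond the spread, by 0.44, 0.49 and 0.34. Of 39 listed lysosomal cathepsin and hydrolase genes, 30 had a negative difference, beside 58.0% of all genes. Beyond the spread 14 were lower (35.9%, beside 19.8% of all), and none of the 39 was at 2-fold. The cathepsin gene CTSV, which the list left out, was past 2-fold and beyond its spread (-1.25, spread 1.10). Of 20 myeloid lineage transcription factor genes, 8 were lower beyond the spread (40%, beside 19.8% of all), among them CEBPA, a driver of granulocyte and monocyte fate, by 0.65, IRF5 by 0.73 and IRF8 by 0.53, and 5 were higher (25%, beside 9.77%), led by POU2F2.

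The remaining named lower genes served varied functions. ARHGEF10L, a guanine nucleotide exchange factor gene, had levels of 7.16, 4.90 and 8.89 with IL-6, against 8.26, 15.5 and 12.8 in controls (-1.66, spread 0.63). CDA, the cytidine deaminase gene, had levels of 15.9, 9.79 and 10.96 with IL-6, against 21.4, 22.0 and 24.96 in controls (-1.17, spread 0.54). The IL-6 and control libraries overlapped for ARHGEF10L and did not for CDA. HELQ, a DNA helicase gene, had levels of 12.6, 8.31 and 14.7 with IL-6, against 13.9, 20.5 and 16.01 in controls (-1.30, spread 0.23). FBXW7, which encodes the substrate receptor of a ubiquitin ligase, was lower by 1.22 at 24 h, beside -0.16 and -0.04 at 6 h and 48 h. UBA7, the activating enzyme gene of the ISG15 pathway, had levels of 33.9, 31.6 and 66.8 with IL-6, against 39.9, 73.3 and 70.2 in controls (-1.21, spread 0.98). BSDC1, CTSV, MDC1, PTPN9, NOCT, EHD1 and ELL differed by -1.27 to -1.16. ENSG00000260861, annotated across SIRPB1 and SIRPD, was lowest with -2.41 (spread 1.96), and its 6 h difference was 0.78. Of the 30 named genes, 20 overlap another annotated gene and 16 one on the opposite strand, and the library kits do not keep the strand, so reads of such pairs cannot be told apart.

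The shortest genes had the highest median in the 24 h pair, and also in the 6 h pair. In the 6 h pair the median was 0.06 in the shortest class and between -0.022 and 0.0 in the longer ones. In the 48 h pair it was -0.04 in the shortest class and between -0.07 and -0.01 in the longer ones. In the 24 h pair, over the 11366 genes in 5 equal length classes, the median was 0.03 in the shortest (207 to 2118 bases). It was -0.09, -0.11, -0.14 and -0.10 in the 4 longer ones in order of length. In families of short genes, 65 of 84 cytosolic ribosomal protein genes and 63 of 77 nuclear oxidative phosphorylation genes had a positive difference. These shares of 77.4% and 81.8% stood beside 42.0% of the 11366 genes, and the medians were 0.14 and 0.15. In each family 4 were higher beyond the spread (4.76% and 5.19%, beside 9.77% of all). The medians were 0.15 and 0.12 in the 6 h pair, near those of 24 h, and both were -0.22 in the 48 h pair. The SDs of the family medians over the 4 libraries of 6 h and 48 h were 0.21 and 0.34, larger than the 24 h medians. The median gene lengths of these families were 1887 and 1587 bases. Of 407 genes with a ZNF symbol, with a median length of 4335 bases, 283 had a negative difference, beside 58.0% of all genes. Of the 407, 106 (26.0%, beside 19.8% of all) were lower beyond the spread, and the median was -0.18. Proteasome subunit genes, with a median length of 2586 bases, had a median of 0.23, and 9 of 37 (24.3%, beside 9.77% of all) were higher beyond the spread. The part of length in these differences was not tested.

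**Figure D5:**
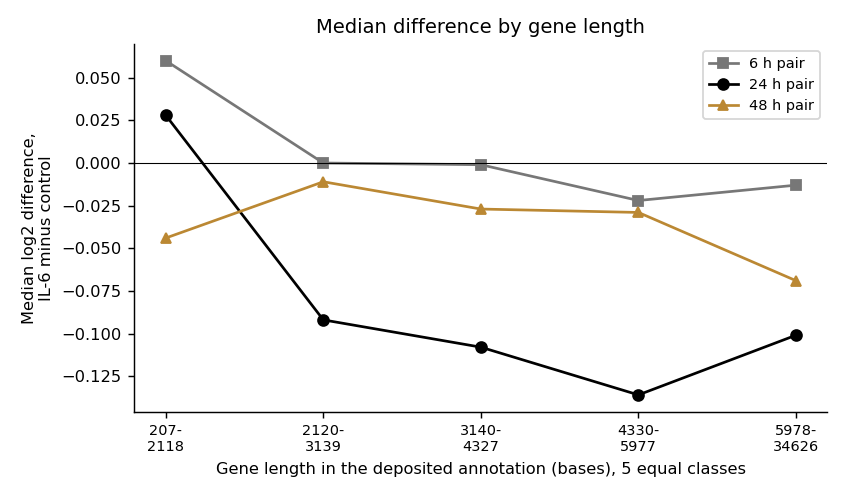
Median log2 difference, IL-6 minus control, over the genes of each of 5 equal gene length classes (bases, deposited annotation), for the 6 h pair (grey squares), the 24 h pair (black circles) and the 48 h pair (ochre triangles). The 24 h median is 0.03 in the shortest class and lies between -0.14 and -0.09 in the 4 longer ones.

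Of the marker lists, 15 of 16 genes of the monocytic line had values. Of these, 13 had a negative difference, beside 58.0% of the 11366 genes, and the median was -0.34. Beyond the spread 3 were lower, a share of 20% that lay near the 19.8% of all genes, and none was higher. At most 4 markers of any other cell type's list had values in all 6 libraries: 3 of 14 for T and NK cells, 4 of 9 for B cells, 2 of 11 for erythroid cells and platelets, and 2 of 15 for epithelium and fibroblasts. Summed over the 2 T and NK cell genes with a recovered level, the level was 1.71 to 8.08 in the IL-6 libraries and 1.10 to 2.59 in controls. IL7R, which monocytes can also express, was higher by 4.33 at 24 h. NKG7, a granule protein gene of cytotoxic cells, has no recovered level and is not in the sum, and differed by 0.87 at 24 h, within its spread of 1.36, and by 0.89 at 48 h. The part of such cells in the results was not tested.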

How the data were processed

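RNA was extracted, amplified with a SMART-Seq v4 low-input kit and made into libraries with Nextera XT, per the labels' protocols; the build was GRCh38 (hg38), per the submitters' processing notes. Which aligner, counting program, annotation and normalization the authors used is not given in the sources used here. The deposited tables give 1 log2 value per gene, and the authors centred every gene on 0 over its libraries (each gene's mean is 0 to within 1.8e-07). The authors' values hold no counts, so depth is unknown and no counting interval is given.

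Python 3.11.15 with NumPy 2.4.6, pandas 2.3.3, Numba 0.67.0 and Matplotlib 3.10.9 was used. Levels were recovered because, after 1 offset per library, a gene's values were whole-number multiples of a step taken as 0.001, within relative tolerances of 6e-07 up to a level of 60 and 4e-07 above; the search ended at 100. Levels came out for 85.8% of the 13028 genes; the other 1844 were treated as at least 100 in their highest library. Where all 6 whole numbers share a divisor the level is understated by that factor. The recovery was tested on simulated data.

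Counts use genes with a mean level of 10 or more in the 24 h pair and lists those with 1 or more; a filter on the mean of both libraries favours large differences in either direction. The text names the 15 highest and 15 lowest genes at least 2-fold and beyond the spread at a level of at least 10. From part of the lists it names members at 2-fold or more at a level of at least 1, otherwise the 2 highest and 2 lowest. Not all such members are described: PARP15 (-1.76, beyond its spread), NCF1 (-1.375, within its spread) and ERRFI1 (1.08, within its spread) are among those left out. Further genes were chosen after their values were seen. The members and lists were chosen with earlier results of these data known. Symbols were matched through older names. Alternatives are in the closing section. Left out were 2994 protein-coding genes with 1 to 5 values, 3956 with none, and all genes of other types.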

Additional observations from a re-analysis of the deposited data

Results flagged for a closer look

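ENSG00000144785, annotated on chromosome 12 across CNPY2 and CS, was higher with IL-6 by 2.14 at 24 h but lower by 0.57 at 6 h and by 0.41 at 48 h, beyond its spread of 0.51. The opposite directions drew attention, and the difference between the times was not tested. It overlaps genes on the opposite strand, whose reads cannot be told apart from its own.

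Outside the genes compared, 24 protein-coding genes had a value in all 3 IL-6 libraries and in no control library, among them CD48, LILRA5 and STEAP4. The reverse held for 26 genes. No level can be set against a missing value, and nothing was compared.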

How the results depend on the processing

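No paired analysis was possible because the 24 h comparison has 1 library on each side and comes from no test; the pairs of 6 h and 48 h are other times. The counts of genes depended on the level filter and on the fold. Without the spread, the 38 higher and 32 lower genes became 212 and 384 at a minimum level of 1, 531 and 810 with no minimum level, 12 and 1 at a minimum level of 30, 195 and 442 at 1.5-fold, and 17 and 3 at 3-fold. Beyond the spread, the 23 higher and 26 lower genes became 130 and 281 at a minimum level of 1, 302 and 549 with no minimum level, 9 and 1 at a minimum level of 30, 115 and 347 at 1.5-fold, and 11 and 3 at 3-fold. Equal library medians gave 17 lower genes beyond the spread. A difference over 2 standard errors from the pooled SD of 48 h and 6 h gave 14 higher genes, and the range of the 3 control libraries gave 35. The cause was not tested. With equal medians, which move every difference by about 0.08 upward, 11 of 61 list medians changed sign, and none of the 34 named or core genes did. A minimum level of 10, added after the data were seen, changed the sign of 4 of 58 list medians. A minimum level of 30 did so for 5 of 55, no minimum level for 3 of 61, and leaving out genes without a recovered level for 6 of 59. Depth is unknown, and at low levels 1 library on each side decides a value.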

Other observations

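Further lists held single genes at 2-fold or more. In iron and lipid handling, SLC11A1, the phagosomal metal transporter gene, differed by 1.14 and ABCG1, a cholesterol exporter gene, by -2.40, both within their spreads. In complement, C1QA was higher by 1.39 and C1S lower by 1.36, both beyond the spread, and CLU, which encodes clusterin, differed by 2.68 within its spread of 2.83. CYP1B1, a target of the aryl hydrocarbon receptor, was higher by 1.19 with levels of 37.7, 36.6 and 47.4 with IL-6, against 19.2, 16.01 and 11.6 in controls. SERPINA1, the antitrypsin gene, and CST7, the cystatin F gene, differed by 1.39 and 1.75 within their spreads. MMP2, a gelatinase gene, and ADAMTS1 were lower by 1.01 and 1.04, beyond the spread.

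Among 35 replication-dependent histone genes at a level of at least 1, 4 were at least 2-fold higher and 3 at least 2-fold lower, beside 1.87% and 3.38% of the 11366 genes. Beyond the spread 3 were higher (8.57%, beside 9.77% of all) and 6 lower (17.1%, beside 19.8%), shares near those of all genes. Of the 35, 6 reached a level of 1 in only 1 of the 2 libraries of 24 h. H4C4 had a level of 0.123 with IL-6 against 2.77 in the control library (-4.50), while H2AC7 was higher by 1.89.

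TMEM176B and TMEM176A, which overlap, were both higher, by 1.10 and 1.497.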
